A study of Mus musculus with 20 samples.

Results

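The insulin-like growth factor (IGF) system of the aged mouse intervertebral disc was followed through 9 genes: the ligand Igf1, the receptors Igf1r and Igf2r, and the binding protein genes Igfbp2, Igfbp3, Igfbp4, Igfbp5, Igfbp6 and Igfbp7. They were chosen by gene symbol, and each was found in a single row among the 51789 genes of the deposited expression table. RNA came from the gel-like disc centre, the nucleus pulposus (NP), and from its surrounding fibrous ring, the annulus fibrosus (AF), in BL6 mice killed at 24 months of age. From 18 months of age the mice had received weekly intraperitoneal DMSO (vehicle) or MDL-800 in the same amount of DMSO for 6 months. MDL-800 is a small-molecule activator of SIRT6, an NAD-dependent deacylase of chromatin, and all animals, controls included, had DMSO. NP and AF of either treatment make 4 groups of 5 libraries, named here by the number in their label. The labels do not say whether the libraries of a group are separate mice, so the tests measure the spread between libraries.

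IGF1 and IGF2 are secreted growth factors that signal through the receptor tyrosine kinase encoded by Igf1r. The Igf2r product, the cation-independent mannose 6-phosphate receptor, takes up IGF2 and delivers it to lysosomes and carries no kinase. The binding proteins hold IGFs with high affinity outside cells and limit their access to the receptor until proteases cut them. In cartilage-like tissues IGF1 is known as a stimulus of proteoglycan synthesis.

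The receptor genes and the other members went opposite ways between the compartments. Under vehicle, Igf1r was 2.64-fold and Igf2r 1.81-fold higher in NP, whereas mean Igf1 was 40.1-fold higher in AF. The binding protein genes Igfbp3, Igfbp4, Igfbp5, Igfbp6 and Igfbp7 were between 5.40-fold and 49.6-fold higher in AF. No member passed the test between MDL-800 and vehicle in either tissue. Levels are scaled FPKM, fragments per length of transcript and per library size after a further library factor, so levels of different genes can be set side by side per length.

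On GRCm38 (mm10) with GENCODE M21, Igf1 (ENSMUSG00000020053) lies at chr10:87858265-87937042 on the plus strand. Igf1r (ENSMUSG00000005533) lies at chr7:67952827-68233668 on the plus strand, and Igf2r (ENSMUSG00000023830) at chr17:12682406-12769664 on the minus strand. Igfbp2 (ENSMUSG00000039323, chr1:72824503-72852474, plus) and Igfbp5 (ENSMUSG00000026185, chr1:72857932-72874884, minus) are neighbours on opposite strands, 5457 bases apart. Igfbp3 (ENSMUSG00000020427) lies at chr11:7206086-7213923 on the minus strand, 3539 bases from Igfbp1. Igfbp4 (ENSMUSG00000017493) lies at chr11:99041244-99054392 on the plus strand. Igfbp6 (ENSMUSG00000023046) lies at chr15:102144362-102149511 on the plus strand, and Igfbp7 (ENSMUSG00000036256) at chr5:77349240-77408041 on the minus strand. All 9 are annotated as protein-coding.

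Promoter sequence is shown for both receptor genes, which were higher in NP, and for 3 binding protein genes that were higher in AF, so that the starts of genes that moved in opposite directions can be read together. Each line gives the 100 bases before the transcription start in RefSeq (GRCm38.p6), 5′ to 3′ on the gene's strand, with capitals marking TATAAA or GGGCGG read on either strand. The windows are chr7:67952157-67952256 for Igf1r (plus), chr17:12769707-12769806 for Igf2r (minus), chr11:7213924-7214023 for Igfbp3 (minus), chr11:99041144-99041243 for Igfbp4 (plus) and chr5:77408046-77408145 for Igfbp7 (minus).
Igf1r: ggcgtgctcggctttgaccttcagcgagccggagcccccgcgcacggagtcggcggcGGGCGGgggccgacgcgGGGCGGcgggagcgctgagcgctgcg
Igf2r: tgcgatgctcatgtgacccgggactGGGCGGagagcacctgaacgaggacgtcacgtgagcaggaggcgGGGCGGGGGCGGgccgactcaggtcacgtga
Igfbp3: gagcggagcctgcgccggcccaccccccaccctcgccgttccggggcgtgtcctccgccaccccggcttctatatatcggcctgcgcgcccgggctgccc
Igfbp4: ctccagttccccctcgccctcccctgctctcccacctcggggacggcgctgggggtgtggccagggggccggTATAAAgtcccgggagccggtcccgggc
Igfbp7: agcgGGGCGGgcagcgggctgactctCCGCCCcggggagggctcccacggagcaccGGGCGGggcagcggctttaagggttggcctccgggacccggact

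All 9 symbols matched a RefSeq promoter, Igfbp2 with 2 starts. Over 250 bases before the start, GGGCGG was found 2 times at Igf1r, 3 times at Igf2r, 3 times at the first start of Igfbp2 and 4 times at Igfbp7, and no match was found in the windows of Igfbp3, Igfbp4, Igfbp5 or Igfbp6. The motif was found in 32.7% of the 32851 RefSeq mouse promoters of the same length. TATAAA was found at Igfbp4, at 28 bases before the start, and at Igfbp6, at 148 bases before it, and in 12.4% of all promoters. CpG dinucleotides numbered 42 at Igf1r, 27 at Igf2r, 32 at Igfbp3, 22 at Igfbp4 and 26 at Igfbp7, against a median of 6 over all promoters. Igfbp5 held 10. Igf1 is left out of these values because the RefSeq start lies 2846 bases inside its GENCODE gene. CpG-rich starts were therefore present among genes higher in NP and among genes higher in AF. These matches describe letters in a window and locate no bound factor.

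Igf1 transcripts were abundant in AF and scarce in NP. In AF vehicle libraries 8, 9, 10, 12 and 13 Igf1 stood at 69.6, 15.5, 35.4, 66.1 and 48.8 scaled FPKM, with a mean of 47.1 ± 22.4 (SD, n = 5). The NP vehicle libraries 1, 2, 3, 5 and 6 held 0.482, 1.54, 1.12, 0.523 and 2.20, with a mean of 1.17 ± 0.724 (SD, n = 5). The lowest AF library was far above the highest NP library, and NP held 2.49% of the AF mean. The log2 difference, NP minus AF on log2(scaled FPKM + 1), was -4.36 (SE 0.39, limma adjusted p = 1.2e-05), a scale that understates changes of low genes.

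Under MDL-800 the Igf1 pattern was alike in direction. AF MDL-800 libraries 25, 27, 28, 29 and 30 stood at 34.5, 45.2, 43.6, 47.8 and 24.2 scaled FPKM. NP MDL-800 libraries 15, 18, 19, 20 and 22 stood at 0.627, 1.16, 0.424, 0.159 and 0.597. The groups again did not overlap, with a log2 difference of -4.64 (SE 0.21, limma adjusted p = 7.11e-07). By an estimate of depth from low values, the NP levels rest on 22 to 288 reads a library and the AF levels on 2320 to 9019.

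Igf1r, the signalling receptor, was the highest of the 9 genes in NP by mean. Its level was 64.0, 53.2, 58.9, 60.2 and 59.1 scaled FPKM in the NP vehicle group (libraries 1, 2, 3, 5 and 6). The AF vehicle libraries 8, 9, 10, 12 and 13 held 20.8, 24.8, 24.5, 19.7 and 22.2. The groups were well apart, with means of 59.1 ± 3.86 (SD, n = 5) and 22.4 ± 2.24 (SD, n = 5). On the log2 scale NP minus AF was 1.36 (SE 0.09, limma adjusted p = 3.98e-06). Under MDL-800, NP libraries ranged from 51.3 to 81.0 and AF libraries from 18.9 to 25.5, with a log2 difference of 1.48 (SE 0.13, limma adjusted p = 6.27e-06).

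Igf2r, the clearance receptor, was also higher in NP, by less. Its level was 59.7, 43.6, 39.1, 36.1 and 35.9 scaled FPKM in libraries 1, 2, 3, 5 and 6 of NP vehicle. In AF vehicle it ran from 19.3 in library 10 to 28.9 in library 8. No AF library reached the lowest NP library, and library 1 stood above the other NP libraries. NP minus AF, the log2 difference was 0.81 (SE 0.15, limma adjusted p = 0.00112). Under MDL-800 it was 0.56 (SE 0.14, limma adjusted p = 0.00514), with NP at 38.9, 36.9, 30.8, 38.3 and 37.0 and AF at 27.8, 27.3, 28.4, 23.3 and 16.9. With the linear trend on GC content taken out of each library, the MDL-800 difference was 0.87, while the median of all genes moved from -0.08 to 0.23. Airn, a noncoding gene that overlaps Igf2r on the other strand, averaged 11.8 in NP vehicle and 9.72 in AF vehicle. The library kit keeps strand, but whether counting used it is not given in the sources used here.

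Because ligand and receptor differed in opposite directions, their ratio separated the tissues widely. Igf1r over Igf1, per length, ran from 26.9 to 133 in NP vehicle, with a median of 52.5, and from 70.0 to 430 in NP MDL-800. In AF vehicle it ran from 0.298 to 1.60, with a median of 0.455, and in AF MDL-800 from 0.418 to 0.832. AF vehicle library 9 was the AF library in which Igf1r exceeded Igf1.

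**Figure D1:**
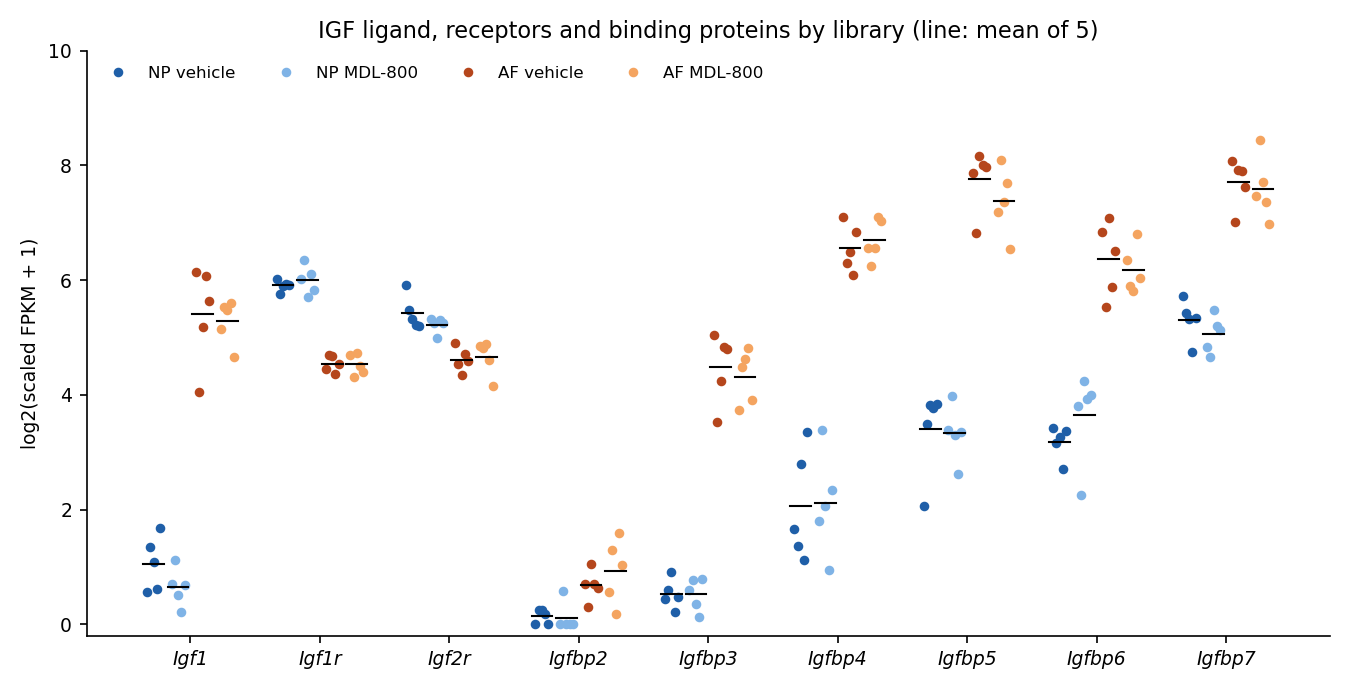
Levels of the 9 genes in each of 20 libraries on log2(scaled FPKM + 1), with a point for each library, colour for the group and a line at the mean of 5 libraries on that scale. Igf1r and Igf2r sit higher in NP, whereas Igf1 and Igfbp3 to Igfbp7 sit higher in AF under either treatment.

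Igfbp3, the carrier that forms the circulating complex with IGF and the acid-labile subunit, was scarce in NP. Its level was 32.0, 10.5, 18.0, 27.4 and 26.8 scaled FPKM in AF vehicle libraries 8, 9, 10, 12 and 13. It was 0.364, 0.505, 0.890, 0.158 and 0.395 in NP vehicle libraries 1, 2, 3, 5 and 6. Every NP library was below 1 and every AF library above 10, and NP held 2.02% of the AF mean. On the log2 scale NP minus AF was -3.96 (SE 0.27, limma adjusted p = 4.06e-06). It was -5.39 with a pseudocount of 0.1 and -2.29 with a pseudocount of 5. Under MDL-800 the difference was -3.79 (SE 0.23, limma adjusted p = 1.12e-06), with NP between 0.0952 and 0.721 and AF between 12.3 and 27.1.

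Igfbp4, a soluble inhibitor of IGF action that the protease PAPP-A cuts, was high in AF. Its level was 137, 77.9, 88.9, 67.0 and 114 scaled FPKM in AF vehicle libraries 8, 9, 10, 12 and 13. In NP vehicle libraries 1, 2, 3, 5 and 6 it was 2.17, 1.58, 5.97, 1.17 and 9.20. The NP libraries differed among themselves by more than did the AF libraries, relative to their means, yet stayed far below them. Igfbp4 had a log2 difference of -4.51 (SE 0.41, limma adjusted p = 1.35e-05) under vehicle and -4.59 (SE 0.38, limma adjusted p = 3.66e-06) under MDL-800.

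Igfbp5, which binds extracellular matrix as well as IGFs, was the highest of the 9 genes by mean in AF vehicle. Its level was 232, 112, 286, 256 and 250 scaled FPKM in AF vehicle libraries 8, 9, 10, 12 and 13. In NP vehicle libraries 1, 2, 3, 5 and 6 it was 3.18, 10.3, 13.1, 12.6 and 13.4. Library 1 was low among the NP libraries and library 9 low among the AF libraries, and the groups were far apart. The log2 difference was -4.37 (SE 0.36, limma adjusted p = 9.03e-06) under vehicle and -4.05 (SE 0.30, limma adjusted p = 2.18e-06) under MDL-800, where NP ran from 5.15 to 14.7 and AF from 91.9 to 271.

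Igfbp6, whose product prefers IGF2 to IGF1, showed a smaller difference. Its level was 114, 45.3, 135, 57.6 and 90.4 scaled FPKM in AF vehicle libraries 8, 9, 10, 12 and 13. In NP vehicle libraries 1, 2, 3, 5 and 6 it was 9.75, 7.90, 8.62, 5.50 and 9.37. The NP libraries lay close together and below every AF library. The log2 difference was -3.19 (SE 0.28, limma adjusted p = 1.21e-05). Under MDL-800 it was -2.54 (SE 0.35, limma adjusted p = 0.000104), with NP at 9.31% of AF under vehicle and 17.2% under MDL-800.

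Igfbp7, a matrix-associated relative with low affinity for IGFs, was the binding protein gene with the highest NP level. It stood at 52.0, 41.9, 38.9, 25.9 and 39.6 scaled FPKM in libraries 1, 2, 3, 5 and 6 of NP vehicle. In AF vehicle libraries 8, 9, 10, 12 and 13 it stood at 268, 128, 241, 238 and 196. AF was higher in every library, and NP held 18.5% of the AF mean. Igfbp7 had a log2 difference of -2.39 (SE 0.22, limma adjusted p = 1.48e-05) under vehicle and -2.53 (SE 0.25, limma adjusted p = 1.17e-05) under MDL-800. Polr2b, an RNA polymerase II subunit gene that overlaps Igfbp7 on the other strand, averaged 27.6 in NP vehicle and 25.5 in AF vehicle.

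Igfbp2, a carrier that is abundant in fetal tissues, was at the edge of detection. It was 0, 0.186, 0.192, 0.128 and 0 scaled FPKM in NP vehicle, by library 1, 2, 3, 5 and 6. The AF vehicle libraries 8, 9, 10, 12 and 13 held 0.628, 0.232, 1.08, 0.628 and 0.556. In NP MDL-800 libraries 15, 18, 19, 20 and 22 it was 0, 0.494, 0, 0 and 0, and in AF MDL-800 libraries 25, 27, 28, 29 and 30 it was 0.476, 1.46, 0.128, 2.00 and 1.04. The NP values correspond to an estimated 0 to 10 reads a library and the AF values to 3 to 43. AF vehicle lay above NP vehicle in every library, and the MDL-800 groups overlapped. The gene did not pass the filter on low values. With no filter the NP minus AF log2 difference was -0.55 (SE 0.13, limma adjusted p = 0.00942) under vehicle and -0.81 (SE 0.26, limma adjusted p = 0.0378) under MDL-800.

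Of the 9 members, 8 passed the filter of 1 FPKM in at least 5 of 20 libraries. Igf1 and Igfbp3 passed only through AF, where they are high, so they had to differ, and no count over the members is offered as support. Differences between the tissues were common: 55.7% of 16383 genes tested were called at an adjusted p under 0.05 under vehicle, 21.8% higher and 33.9% lower in NP, beside 2 members higher and 6 lower. Under MDL-800 the share was 62.8%, with 25.6% higher and 37.2% lower, beside the same 2 and 6 counts. Groups did not overlap for any of the 8 tested members under vehicle or under MDL-800, beside 41.0% and 49.1% of all genes tested without overlap. Those of Igfbp2, which was not tested, did not overlap under vehicle and overlapped under MDL-800. With quantile normalization 6474 genes were higher and 3925 lower under vehicle, against 3577 and 5550 without it, as the median of all genes moved from -0.08 to 0.20. The tested members kept their direction and their call under that scaling. In bulk tissue, fewer cells of a type and less RNA per cell cannot be told apart.

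**Figure D2:**
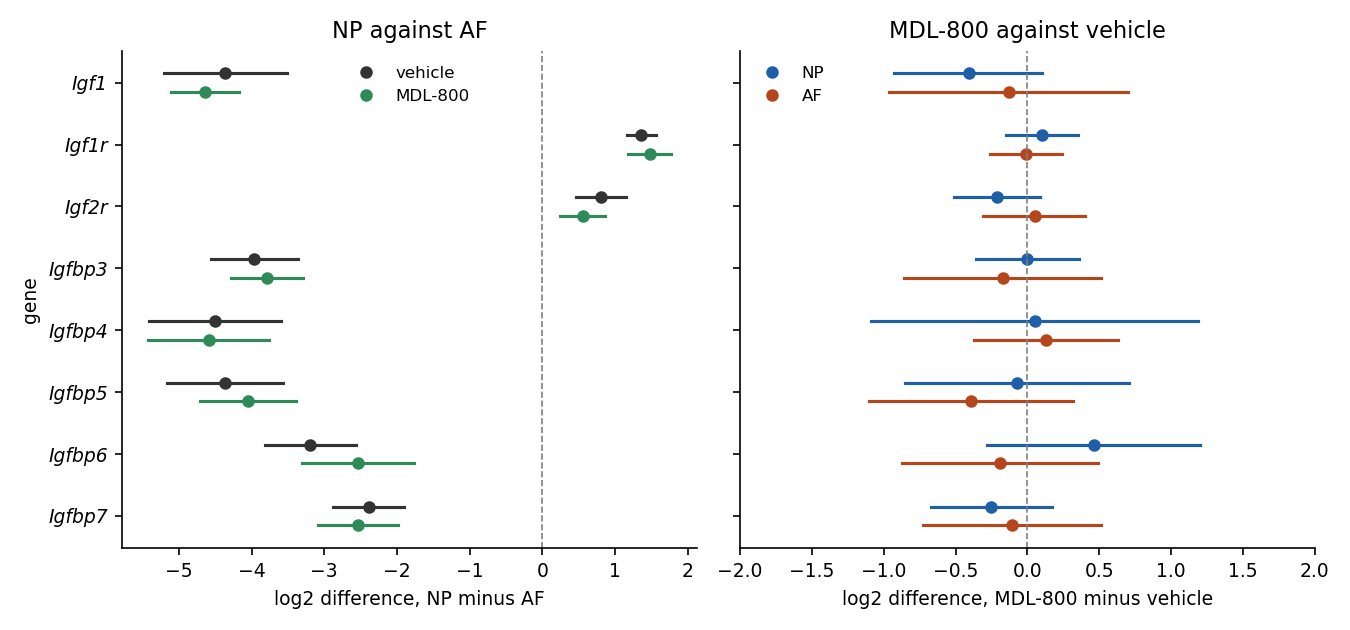
Log2 differences with 95% confidence intervals from limma for the 8 tested genes, NP minus AF on the left and MDL-800 minus vehicle on the right, on different horizontal scales. The tissue intervals all exclude 0, with the receptor genes on the NP side, and the treatment intervals all include 0. Igf1 and Igfbp3 passed the filter only through AF and had to differ between the tissues. Of all genes tested, 55.7% were called between the tissues under vehicle and 62.8% under MDL-800.

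The binding protein transcripts differed in make-up as well as in sum. The 6 genes together came to a median of 678 scaled FPKM in AF vehicle (375 to 783) and 67.5 in NP vehicle (45.4 to 71.9). In NP vehicle Igfbp7 made up 55.0% to 77.1% of the sum, against 28.9% to 36.9% in AF vehicle. Igfbp5 made up 29.6% to 39.5% in AF vehicle and 4.72% to 27.6% in NP vehicle. Igfbp6 took overlapping shares, 12.1% to 14.4% in NP vehicle and 8.91% to 17.5% in AF vehicle. Igfbp3 was a minor part in either tissue, 2.34% to 4.23% in AF vehicle and 0.348% to 1.31% in NP vehicle. Under MDL-800 Igfbp7 made up 45.6% to 63.4% in NP and 25.4% to 44.9% in AF. Igfbp6 made up a median of 24.2% in NP MDL-800 (7.05% to 25.6%) and 15.1% in AF MDL-800 (7.54% to 17.1%). Shares of a sum are tied to each other.

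**Figure D3:**
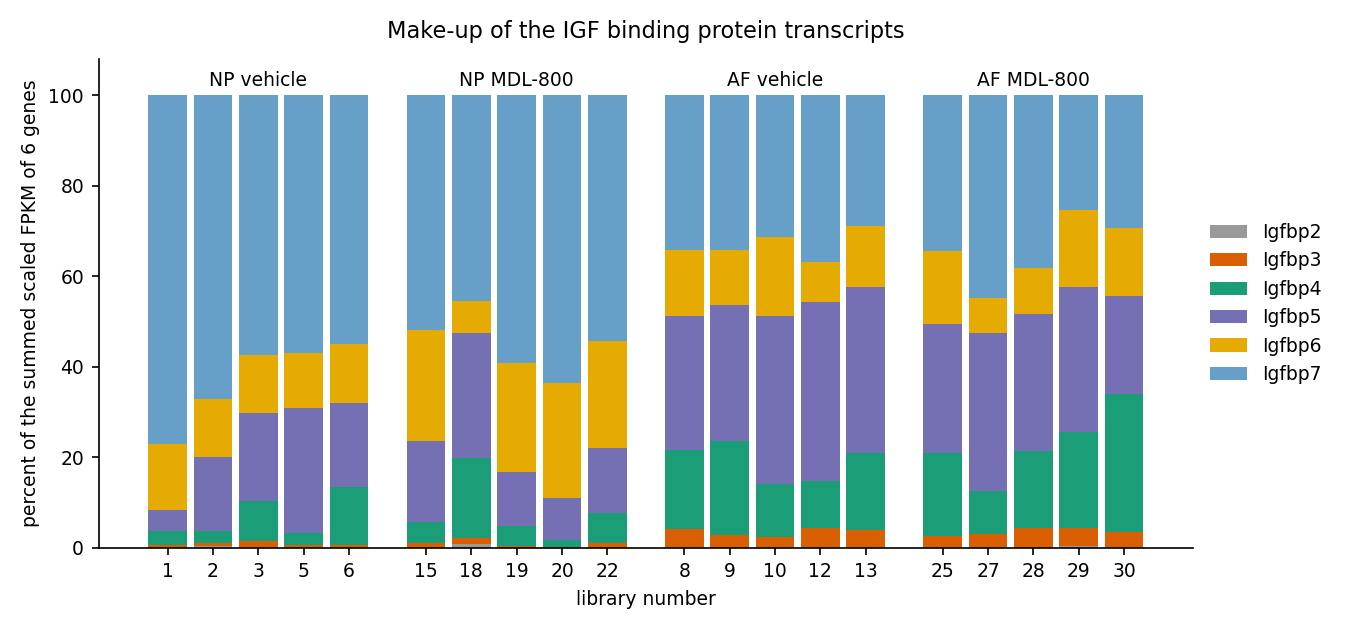
Percent of the summed scaled FPKM of 6 binding protein genes taken by each gene, a bar for each library, grouped by tissue and treatment. Igfbp7 takes 55.0% to 77.1% in NP vehicle, and Igfbp5 and Igfbp7 together with Igfbp4 fill most of each AF bar.

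By mean level in NP vehicle the order was Igf1r, Igf2r, Igfbp7, Igfbp5, Igfbp6, Igfbp4, Igf1, Igfbp3 and Igfbp2. The ranges of Igfbp7 and Igfbp5 were separate there, and those of every other pair of neighbours overlapped. In NP MDL-800 the order differed by an exchange of Igfbp6 and Igfbp5, whose ranges overlapped, and the ranges of Igf1r and Igf2r and of Igfbp7 and Igfbp6 were separate. In AF vehicle the order was Igfbp5, Igfbp7, Igfbp4, Igfbp6, Igf1, Igf2r, Igfbp3, Igf1r and Igfbp2, and the ranges of neighbours overlapped except between Igf1r and Igfbp2. In AF MDL-800 Igfbp7 stood before Igfbp5 and Igf1r before Igfbp3, with overlapping ranges in both cases, and the ranges of Igfbp6 and Igf1 and of Igfbp3 and Igfbp2 were separate.

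MDL-800 was compared with vehicle within each tissue to ask which transcripts changed with the drug. In NP, 0 of 8 tested members were called by limma and 0 had an unadjusted p under 0.05, beside 0.250% of all genes called (41 genes) and 14.1% at an unadjusted p under 0.05. In AF, 0 of 8 were called and 0 had an unadjusted p under 0.05, beside 0 of 16383 genes called and 1.65% at an unadjusted p under 0.05. The groups of every member overlapped in both tissues, beside 4.50% of all genes without overlap in NP and 0.226% in AF.

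Igf1 in NP had the smallest p of the members. Its mean was 1.17 ± 0.724 (SD, n = 5) under vehicle and 0.593 ± 0.366 (SD, n = 5) under MDL-800, both low. The MDL-800 minus vehicle log2 difference was -0.41 (95% interval -0.93 to 0.10, limma adjusted p = 0.463). It was -0.17 with the linear GC trend removed and -0.26 without NP vehicle library 6, the highest library of that group. It was -0.54 without NP vehicle library 1, the lowest of that group, -0.85 with a pseudocount of 0.1 and -0.14 with a pseudocount of 5.

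Igfbp6 in NP pointed the other way. Its level was 13.0, 3.78, 17.8, 14.3 and 14.9 scaled FPKM in NP MDL-800 libraries 15, 18, 19, 20 and 22, against 5.50 to 9.75 in NP vehicle. All but library 18 lay above the vehicle range, and library 18 lay below it. The log2 difference was 0.46 (95% interval -0.28 to 1.20, limma adjusted p = 0.578), and 0.81 without library 18 (limma adjusted p = 0.0839). With the smooth GC trend removed it was 0.10.

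The intervals for the remaining genes in NP set how large an undetected change could be. They were -0.15 to 0.35 for Igf1r, -0.51 to 0.09 for Igf2r and -0.67 to 0.17 for Igfbp7. They were -0.36 to 0.36 for Igfbp3, -0.85 to 0.71 for Igfbp5 and -1.09 to 1.19 for Igfbp4. The slope of each library's values on GC content ran from -0.28 to -0.01 in NP vehicle and from 0.02 to 0.09 in NP MDL-800, with no overlap. With either GC trend removed, 0 members were called in NP.

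In AF the levels under both treatments were close for the receptors. Igf1r averaged 22.2 ± 2.88 (SD, n = 5) under MDL-800 and 22.4 ± 2.24 (SD, n = 5) under vehicle, with a log2 difference of -0.01 (95% interval -0.26 to 0.24). Igf2r differed by 0.05 (95% interval -0.31 to 0.40). Igfbp5 had the largest difference of the members in AF, -0.39 (95% interval -1.10 to 0.32, limma adjusted p = 1), from a mean of 227 ± 67.1 (SD, n = 5) to 176 ± 67.4 (SD, n = 5). Igf1 differed by -0.13 (95% interval -0.96 to 0.70), and by -0.47 without AF vehicle library 9. The intervals of the binding protein genes in AF reached from -1.10 to 0.63.

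The treatment effect was also compared between NP and AF. Of 8 members 0 were called by limma in the interaction and 0 had an unadjusted p under 0.05, beside 0 of 16383 genes called and 3.73% at an unadjusted p under 0.05. The largest difference of effects was that of Igfbp6, 0.65 (95% interval -0.35 to 1.65, limma adjusted p = 0.9997).

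Igf2, which encodes the other ligand, was also higher in AF. It averaged 0.365 scaled FPKM in NP vehicle and 17.0 in AF vehicle, and the log2 difference was -3.58 (SE 0.32, limma adjusted p = 1.24e-05). Under MDL-800 it was -3.34 (limma adjusted p = 1.91e-06). Igf2 reached 1 in 1 of 10 NP libraries, so it passed the filter through AF and had to differ. Igfbp1, Ins1 and Ins2 were listed at 0 in all 20 libraries. Igfals, which encodes the acid-labile subunit, averaged 0.215 in NP vehicle and 0.458 in AF vehicle and was not tested. The insulin receptor gene Insr averaged 18.6 in NP vehicle and 15.2 in AF vehicle, with a log2 difference of 0.25 (SE 0.14, limma adjusted p = 0.154).

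Of 79 other genes of the pathway, 69 were tested. Under vehicle 17 were higher in NP, 24 lower and 28 not called, with a median log2 difference of -0.18 beside -0.08 over all genes. Over all genes tested 21.8% were called higher and 33.9% lower. These counts were 24 higher and 16 lower with quantile normalization or with the linear GC trend removed. Under MDL-800 they were 20 higher, 25 lower and 24 not called, beside 25.6% and 37.2% of all genes, and 29 higher and 13 lower with the linear GC trend removed.

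Of 8 genes of the growth hormone axis, the upstream stimulus of Igf1 in many tissues, 7 were called lower in NP under vehicle and 8 under MDL-800, beside 33.9% and 37.2% of all genes tested. Of these Socs1, Socs2 and Cish reached 1 in 0 of 10 NP libraries. They passed the filter only through AF and had to differ, so the counts are not offered as support. With quantile normalization 5 and 4 were called lower. Ghr, the growth hormone receptor, averaged 9.47 in NP vehicle and 42.8 in AF vehicle, a log2 difference of -2.05 (SE 0.26, limma adjusted p = 8.17e-05). Socs2, a feedback inhibitor of that receptor, averaged 0.377 and 11.4, a difference of -3.11 (SE 0.22, limma adjusted p = 4.25e-06), and differed by -3.22 under MDL-800 (limma adjusted p = 7.11e-07). Socs1, of the same family, averaged 0.320 in NP MDL-800 and 1.41 in AF MDL-800, a difference of -0.86 (limma adjusted p = 0.000109), and -0.27 with quantile normalization (limma adjusted p = 0.102). Jak2, which encodes the kinase of the growth hormone receptor, averaged 12.7 in NP vehicle and 22.5 in AF vehicle, a difference of -0.78 (SE 0.09, limma adjusted p = 6.06e-05).

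The proteases that cut binding proteins, with their inhibitors, went both ways under vehicle. Of 11 tested, 3 were higher in NP, 6 lower and 2 not called, beside 21.8% higher and 33.9% lower of all genes tested. Among the lower ones Pappa, Pappa2 and Adam12 reached 1 in 0 of 10 NP libraries. They passed the filter only through AF and had to differ, so the counts are not offered as support. Pappa, whose product cuts the Igfbp4 protein, averaged 0.117 in NP vehicle and 1.54 in AF vehicle (log2 difference -1.17, limma adjusted p = 4.08e-05), with a difference of -1.34 under MDL-800 (limma adjusted p = 1.18e-05). Pappa2, whose product cuts those of Igfbp3 and Igfbp5, averaged 0.0970 and 2.82 (log2 difference -1.72, limma adjusted p = 0.000107). Adam12, a metalloprotease gene, averaged 0.287 in NP MDL-800 and 2.91 in AF MDL-800 (log2 difference -1.59, limma adjusted p = 2.51e-05). The 3 that were higher under vehicle, chosen after their values were seen, were the serine protease gene Htra1 at 1795 against 582, Adamts1 at 23.7 against 9.25 and Prss23 at 117 against 51.6.

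Within the cell, 9 of 34 adaptor and kinase genes were higher in NP under vehicle and 7 lower, beside 21.8% and 33.9% of all genes tested. The counts were 15 and 4 with the linear GC trend removed and 14 and 5 with quantile normalization. Grb10, an adaptor that restrains insulin and IGF1 receptor signalling, averaged 66.7 in NP vehicle and 30.5 in AF vehicle, a log2 difference of 1.10 (SE 0.14, limma adjusted p = 0.000106). Gab1, a docking protein, averaged 35.2 and 19.5 (log2 difference 0.82, limma adjusted p = 0.000171). Under MDL-800 the phosphoinositide 3-kinase genes Pik3cb, at 3.13 in NP and 9.02 in AF, and Pik3r1, at 23.3 and 46.8, were lower in NP, by log2 differences of -1.25 (limma adjusted p = 7.32e-05) and -0.97 (limma adjusted p = 0.0001). Sesn3, a FOXO target gene, averaged 297 in NP vehicle and 66.2 in AF vehicle, a difference of 2.27 (SE 0.32, limma adjusted p = 0.000152). In the same groups Klf15 averaged 12.7 and 5.65 (1.05, limma adjusted p = 5.53e-05). Under MDL-800 Sesn3 differed by 2.47 (limma adjusted p = 1.13e-06) and Klf15 by 1.56 (limma adjusted p = 9.17e-05). Igf2bp3, which encodes an RNA-binding protein of Igf2 mRNA, averaged 1.67 in NP MDL-800 and 0.373 in AF MDL-800 (0.97, limma adjusted p = 2.77e-05). It reached 1 in 0 of 10 AF libraries, so it passed the filter only through NP and had to differ. The remaining receptor genes called higher in NP under vehicle, chosen after their values were seen, were Lrp1 at 229 against 149 and Sort1 at 43.9 against 29.6.

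**Figure D4:**
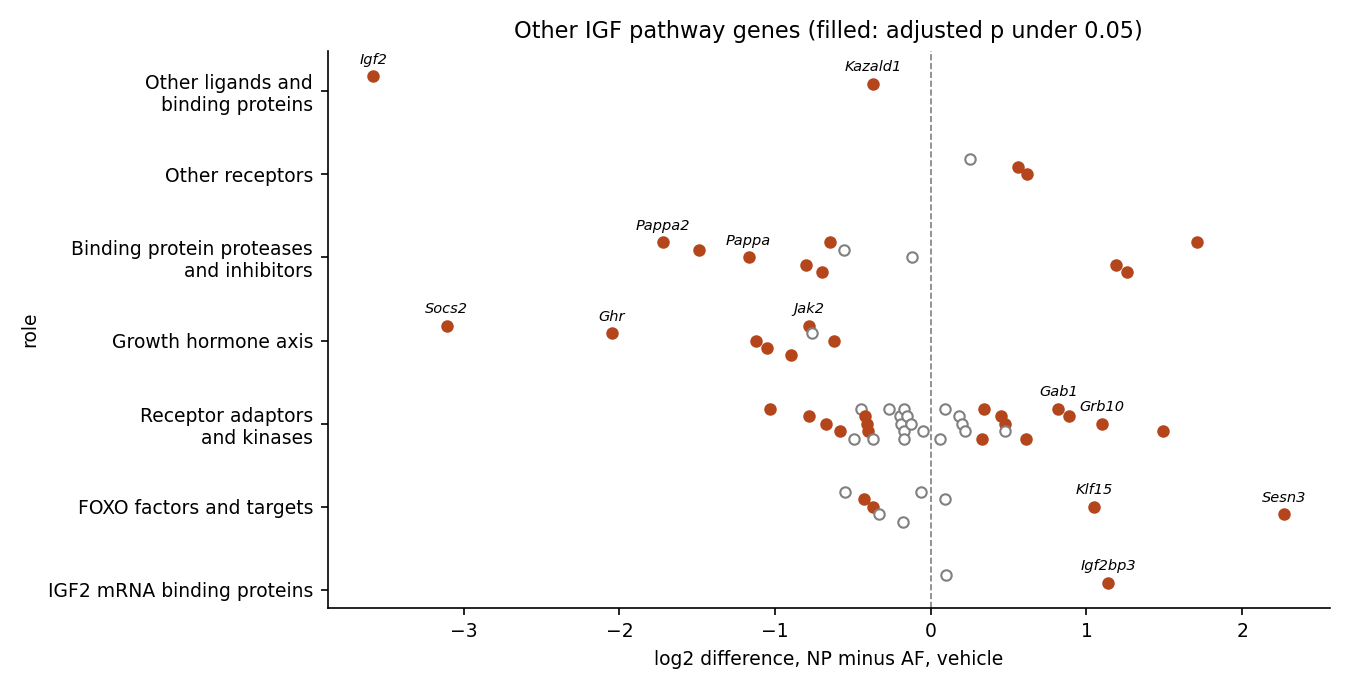
Log2 difference, NP minus AF under vehicle, for the 69 tested pathway genes by role, a point for each gene, filled where the adjusted p is under 0.05. The growth hormone axis lies below 0, with Socs2 at -3.11 and Ghr at -2.05, whereas the adaptors lie on both sides. Socs1, Socs2, Cish, Pappa, Pappa2, Adam12 and Igf2 passed the filter through AF, and Igf2bp3 through NP.

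Between MDL-800 and vehicle 0 of 69 pathway genes were called by limma in NP and 0 in AF, beside 0.250% and 0% of all genes tested. An unadjusted p under 0.05 was found for 11 in NP and 1 in AF, beside 14.1% and 1.65% of all genes tested. The smallest p in NP was that of Klf15, which averaged 22.5 under MDL-800 and 12.7 under vehicle, without overlap (log2 difference 0.75, SE 0.15, limma adjusted p = 0.074). Pik3r2, a regulatory subunit of phosphoinositide 3-kinase, followed at 0.37 (limma adjusted p = 0.151), and at -0.02 with the smooth GC trend removed. In AF the smallest p was that of Kazald1 at 0.32, followed by Socs3 at 0.48, both with a limma adjusted p of 1. In the interaction the smallest p was that of Grb14 at -0.60 (95% interval -1.18 to -0.01), followed by Klf15 at 0.50 (95% interval -0.02 to 1.03), both with a limma adjusted p of 0.9997.

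The dissections were checked with marker genes, because markers of neighbouring tissues moved with the same comparison. The summed level of 8 NP markers ran from 25619 to 30794 scaled FPKM in NP vehicle and from 2493 to 15089 in AF vehicle. This sum was mostly Car3, which averaged 20344 beside a mean sum of 27225 in NP vehicle and 4794 beside 6837 in AF vehicle. Taken singly, the 8 markers in NP vehicle averaged from 194% to 460% of their AF vehicle means. The summed level of 7 AF markers ran from 784 to 1561 in NP vehicle and from 2527 to 7132 in AF vehicle. Of the AF markers Fmod went the other way, at 1001 in NP vehicle and 703 in AF vehicle, while Dcn averaged 44.6 and 3234. Each marker sum was higher in the tissue it is named for, and NP markers were also present in AF libraries.

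Marker sums of neighbouring cells were lower in NP as well. Under vehicle the NP mean was 3.08% of the AF mean for 6 fat genes, 7.37% for 6 endothelial genes, 7.26% for 6 red blood cell genes and 5.82% for 8 bone genes. It was 8.02% for 8 skeletal muscle genes, 9.08% for 6 neutrophil genes, 12.2% for 6 B and plasma cell genes, 12.9% for 7 macrophage genes and 19.6% for 6 nerve genes. For 4 liver genes it was 5.02%, a sum made up mostly of Serpina1a, at 6.01 in NP vehicle and 123 in AF vehicle. Apoa1 went the other way, at 0.159 in NP vehicle and 0.0955 in AF vehicle, and Ttr was at 0 in all NP vehicle libraries. In the same comparison the NP mean was 2.49% of the AF mean for Igf1, 2.02% for Igfbp3, 4.15% for Igfbp4 and 4.62% for Igfbp5. It was 9.31% for Igfbp6, 16.2% for Igfbp2 and 18.5% for Igfbp7. The sum of the 7 AF markers stood at 22.6%, and their median gene at 4.87%, with a range from 1.38% to 142%. Median genes of the neighbouring lists stood at 2.25% for fat, 4.53% for endothelium, 4.79% for nerve, 5.12% for bone and 5.17% for macrophages. They stood at 7.36% for red blood cells, 8.77% for neutrophils, 9.07% for skeletal muscle and 9.53% for B and plasma cells. The part of AF cells or of these neighbouring cells in the levels of the IGF genes was not tested.

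**Figure D5:**
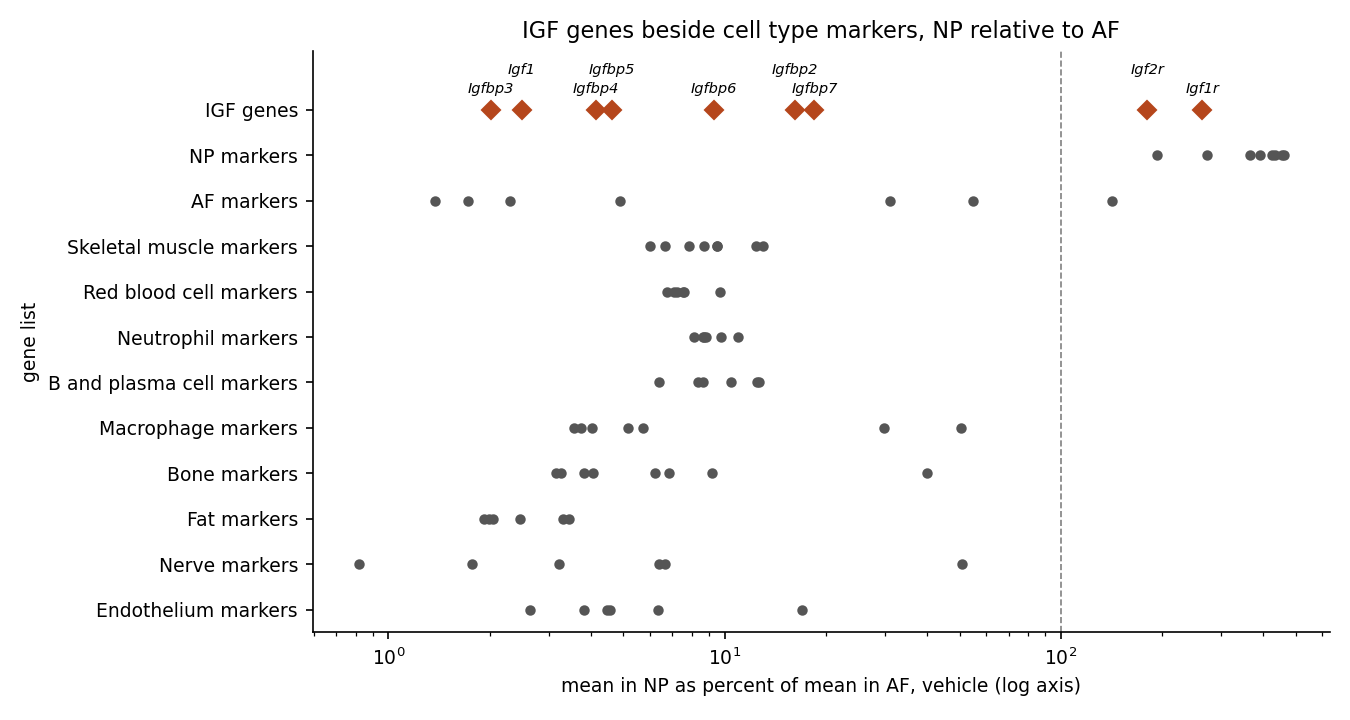
Mean in NP as a percent of the mean in AF under vehicle, on a log axis, for the 9 IGF genes (diamonds) and for the marker genes of each list (points), without genes at 0 in either group and without the liver list. Igf1, Igfbp3, Igfbp4 and Igfbp5 lie between 2.02% and 4.62%, within the span of the AF markers and of the nerve markers. They lie below every skeletal muscle, red blood cell, neutrophil and B and plasma cell marker, the lowest of which is at 6.01%. Igf1 and Igfbp3 also lie below every macrophage, bone and endothelial marker, the lowest of which is at 2.64%. Igfbp6 lies at 9.31%, Igfbp2 at 16.2% and Igfbp7 at 18.5%, and the receptor genes lie on the NP side of 100%.

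Some libraries stood low or high for several members at once. AF vehicle library 9 was the lowest of its group for Igf1, Igfbp3, Igfbp5, Igfbp6 and Igfbp7. It also had the highest NP marker sum of its group, 15089, and the lowest AF marker sum, 2527. Without it the Igf1 difference under vehicle was -4.70. Among AF MDL-800 libraries, library 30 was the lowest for Igf1, Igfbp5 and Igfbp7 and had the lowest AF marker sum, 3106. Library 27 was the highest for Igfbp5 and Igfbp7 and had the highest AF marker sum, 7409, yet was the lowest for Igfbp4. Library 29 was the highest for Igf1, Igfbp3, Igfbp4 and Igfbp6, while its AF marker sum, 4660, was the median of its group.

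In NP, library 6 under vehicle and library 18 under MDL-800 were the highest of their groups for Igf1, Igfbp4 and Igfbp5. They also had the highest sums of endothelial markers, 7.64 and 8.27, and of macrophage markers, 97.1 and 78.2. Library 6 also had the highest red blood cell, neutrophil, B and plasma cell, bone and liver sums of its group. The muscle, fat and nerve sums of that group were highest in library 3. Library 18 also had the highest fat and nerve sums of its group. There the red blood cell, neutrophil and B and plasma cell sums were highest in library 22, muscle in library 15, and bone and liver in library 19. Library 18 was also the lowest of its group for Igfbp6 and Igfbp7 and had the lowest AF marker sum, 842. In NP MDL-800 that sum was mostly Fmod, which averaged 924 beside a mean sum of 1046, and 653 in AF MDL-800. NP MDL-800 library 20 was the lowest for Igf1, Igfbp3, Igfbp4 and Igfbp5 and had the lowest endothelial sum, 1.69, and macrophage sum, 47.1. Its red blood cell, neutrophil, B and plasma cell, bone and fat sums were also the lowest of the group. Muscle was lowest in library 19, nerve in library 15 and liver in library 18. Whether these cells contributed the transcripts was not tested.

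The genes most like each member across libraries were taken by Pearson's r of log2 values over 20 libraries after the mean of each group was removed, as a description. All genes of a library share its depth and its tissue make-up, which differ between libraries. Igf1 was most like Col12a1 (r = 0.94), Sulf1 (r = 0.92) and Dpysl3 (r = 0.91), and Igfbp3 was like Anpep (r = 0.94) and Col14a1 (r = 0.90). Igfbp5 was most like Deptor (r = 0.95), Gem (r = 0.94) and Thbs2 (r = 0.92), and Igfbp7 most like Ecm2 (r = 0.92), Matn2 (r = 0.91) and Ivns1abp (r = 0.90). Igfbp4 was most like Kit (r = 0.87), Rftn1 (r = 0.86) and Pik3ap1 (r = 0.85), and Igfbp6 most like Mmp15 (r = 0.80), Hoxb2 (r = 0.78) and Slc22a17 (r = 0.76). Igf1r was most like Lss (r = 0.83), Rtn4rl2 (r = 0.77) and Pacsin2 (r = 0.76), and Igf2r most like Slc35b4 (r = 0.87), Uggt1 (r = 0.86) and Ttc37 (r = 0.85).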

How the data were processed

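RNA was measured in 20 libraries of NP and AF tissue, made with a stranded total RNA kit after removal of ribosomal RNA from 50 ng of RNA with 14 PCR cycles, per the labels' protocols. The authors deposited FPKM values for 51789 genes, rounded to 2 decimals. STAR 2.7.11b and mm10 are named in the submitters' processing notes, and the counting program and annotation are not given in the sources used here. Depth, estimated from steps of single reads in low values, was 12.8 to 22.2 M (megareads) a library, and between 69.0% and 76.5% of the values read lay on such steps. No count model was used.

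Deposited FPKM values were divided by a median-ratio factor (0.933 to 1.062, over 11308 genes). Each pair of groups was tested with limma 3.58.1 in R 4.3.3 (lmFit, eBayes with trend) on log2(scaled FPKM + 1), two-sided, with the 2 groups alone in the fit and Benjamini-Hochberg adjustment over the 16383 genes that reached 1 FPKM in at least 5 libraries. The interaction used all 4 groups. The test and the depth estimate were tested on simulated data. Alternatives changed the pseudocount, filter, scaling, GC trend, spread estimate and libraries included. All 9 members were named. Of the pathway list, up to 10 called genes with the smallest p were named in each comparison, or 2 where none was called, and for each member the 3 genes of highest r. A gene that this rule takes for Igfbp3 is not reported here. GENCODE M21 holds 51596 of the gene identifiers. The members, lists and tests were chosen with earlier results of these data known.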

Additional observations from a re-analysis of the deposited data

Results flagged for a closer look

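In groups of 5 libraries, a value was singled out where its gap to the nearest library exceeded 0.71 of the range of the group (Dixon's criterion, which chance meets in about 1 of 20 groups), and 2 of 36 sets of a member in a group met it. Igf2r in NP MDL-800 was 30.8 scaled FPKM in library 19, below the other 4 libraries at 36.9 to 38.9. Igfbp2 in NP MDL-800 was 0.494 in library 18 and listed at 0 in the other 4 libraries, at an estimated 10 reads.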

How the results depend on the processing

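The tissue differences were those of the 8 tested members, of which Igf1 and Igfbp3 had to differ through the filter. Of their 336 values under the alternatives, 335 kept direction and call. The exception was Igf2r under MDL-800 with a replicate block, at 0.56 with a limma adjusted p of 0.0912. The block was chosen after seeing the data. It uses a number in the column names that NP and AF share, whose meaning is not given. Under MDL-800 the shared numbers were 36, 37 and 39, and libraries with other numbers were left out of the block. The block and the loss of libraries therefore cannot be told apart there. Same-numbered libraries did not deviate together in every pair (r from -0.18 to 0.29), so the numbers were not taken to pair the samples.

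No member was called between treatments or in the interaction under any alternative. Directions near 0 turned in some settings, and the cause was not tested. Rescaling to an equal sum gave 0.06 for Igf1r in AF, -0.02 for Igfbp4 in NP and -0.03 for Igf1r in the interaction. Igfbp4 in NP was -0.01 with the linear and -0.04 with the smooth GC trend removed, and Igfbp3 in NP was 0.00 with a pseudocount of 5. Leaving out each library gave, in AF, -0.47 to 0.05 for Igf1, -0.06 to 0.04 for Igf1r, -0.02 to 0.17 for Igf2r and -0.33 to 0.04 for Igfbp7. In NP it gave -0.08 to 0.10 for Igfbp3, -0.27 to 0.37 for Igfbp4 and -0.40 to 0.11 for Igfbp5. In the interaction it gave -0.47 to 0.06 for Igf1, -0.40 to 0.24 for Igfbp4, -0.01 to 0.55 for Igfbp5 and -0.29 to 0.08 for Igfbp7.

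Over all genes, the 41 calls between treatments in NP ranged from 2 (without NP vehicle library 3 or NP MDL-800 library 22) to 189 (without NP vehicle library 6). They were 4 with all 4 groups in the fit, 7 with no filter, 18 with no scaling or with no trend in eBayes, and 70 with quantile normalization. Kazald1, lower in NP under vehicle at -0.37, was 0.01 with the linear GC trend removed, and Pik3r2 in NP was -0.02 with the smooth GC trend removed. Depth limits Igfbp2, at 0 to 10 estimated reads in NP.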
